A study of Mus musculus with 16 samples.

Results

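A set of 10 genes of the Nodal pathway was followed through cultures in which mouse stem cells of 2 kinds assembled into embryo-like structures. They are the ligand Nodal, its co-receptor Tdgf1 (Cripto), the convertases Pcsk6 (PACE4) and Furin, the receptor Acvr2b, the cofactor Foxh1 and the antagonists Lefty1, Lefty2, Cer1 and Fst. They were chosen by name and role, with earlier results of these data known. They make up 10 of the 31663 entries of the expression table. The libraries were made with the Smart-seq2 protocol from single picked colonies, 2 for each of 8 groups and 16 in all. Induced pluripotent stem cells (iPSC) carried GFP and trophectoderm stem cells (TSC, written TSCC in the labels) carried RFP. Each kind was grown alone or mixed with the other, and assembled structures were parted by hand, by their colour, into an iPSC part and a TSC part. BMP4 was added to one group of each of these 4 kinds of sample during the final 24 hours, up to collection on day 3, and left out of the other. The dose of BMP4, the mouse strain and the clone of each line are not stated in the labels. The groups are thus lone iPSC, lone TSC and the iPSC and TSC parts of assembled structures, with a BMP4-treated counterpart for each, and all 8 share a medium with FGF4 and heparin on Matrigel. Whether replicate libraries came from separate cultures is not stated, so the p-values below reflect only how far these libraries scatter.

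Nodal is a secreted factor of the TGF-beta family that patterns the early embryo. Furin and Pcsk6 cut its precursor, Tdgf1 presents it to type I and type II activin receptors such as Acvr2b, and the signal reaches genes through Smad2 and Smad3 with the DNA-binding partner Foxh1. Lefty1, Lefty2 and Cer1 are secreted antagonists of Nodal, and Lefty genes are themselves targets of the pathway, while Fst (follistatin) binds activins. In the mouse embryo the epiblast makes Nodal and Tdgf1, the neighbouring extraembryonic ectoderm, a trophoblast tissue, is a source of both convertases, and Nodal signals help to maintain trophoblast stem cells.

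Values are FPKM, which scale fragments by transcript length and library total, and differences are given as log2(FPKM + 1) ± SE from limma, with 2 libraries per group and p-values adjusted over 13406 genes (threshold 0.05). This scale understates the fold of genes at low levels. Since each library is a whole colony or a hand-parted piece of an assembled structure, fewer cells that express a gene and less RNA per cell cannot be told apart.

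Pou5f1, the central pluripotency factor, stood between 49.5 and 326 FPKM in iPSC origin and between 0.0335 and 13.2 in TSC origin, and Nanog likewise did not overlap. The other 4 of 6 pluripotency markers overlapped between the lineages, and Zfp42 (median 18.8 FPKM in TSC and 7.28 in iPSC origin) and Sox2 (3.78 and 1.36) were higher in TSC origin by their medians. The summed level of the 6 ran from 226 to 927 FPKM in iPSC origin and from 193 to 791 in TSC origin. Cdx2, a defining factor of trophoblast stem cells, was low throughout, at 0 to 6.24 FPKM in TSC origin and 0.245 to 6.16 in iPSC origin. Elf5, another such factor, stood in TSC alone at 5.51 and 11.6 FPKM against 116 to 224 in the other 6 libraries of TSC origin. The summed level of 9 trophoblast markers ran from 492 to 6995 FPKM in TSC origin and from 123 to 804 in iPSC origin. Summed endoderm markers stayed between 2.11 and 13.7 FPKM, with Ttr at 0 in all 16 libraries, and summed fibroblast markers between 0.0372 and 4.22 FPKM. By the single genes named next, a pair of libraries carried genes of the other lineage. Replicate 2 of the assembled TSC part held Pou5f1 at 13.2 and Nanog at 4.51 FPKM, against 2.33 and 0.224 in replicate 1. In the BMP4-treated assembled iPSC part, replicate 2 held Elf5 at 50.4 and Hand1 at 149 FPKM, against 0.193 and 10.4 in its partner. The marker sums did not set this pair apart. Pluripotency markers summed to 791 FPKM in replicate 1 and 644 in replicate 2 of the assembled TSC part. Trophoblast markers summed to 528 and 582 FPKM in the BMP4-treated assembled iPSC part. They summed to 804 in replicate 2 of iPSC alone with BMP4, which was not put in the pair. Values without the pair are given beside the results that it changed.

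Most of the differences that passed were between the lineages. Of the 9 members that reached 1 FPKM in at least 2 libraries, 6 were lower and 1 was higher in TSC than in iPSC when each grew alone without BMP4, a comparison in which 36.4% of all genes tested passed. The lower ones were Nodal, Tdgf1, Foxh1, Lefty1, Lefty2 and Fst, and the higher one was Furin. Of all genes, 20.2% were lower and 16.2% higher there. With BMP4 on both sides, 5 members were lower and none higher by limma (1 higher, Furin, at an unadjusted p of 0.0384), against 18.2% of all genes (10.6% lower and 7.62% higher). Between the assembled parts, 5 members were lower and 1 higher, against 16.9% of all genes (5.89% lower and 11.1% higher). Between the assembled parts with BMP4, 4 members were lower and none higher by limma (none at an unadjusted p under 0.05), against 10.1% of all genes (4.82% lower and 5.32% higher). The median difference over the 9 members was -3.97, -2.85, -2.24 and -1.60 in these comparisons, beside -0.11, -0.090, 0.12 and 0.035 over all genes. Without the pair of libraries named above, the counts that passed were 7, 5, 4 and 6. Averaged over the 4 settings, 6 members were lower and 2 higher in TSC origin, where 48.8% of all genes passed (24.0% lower and 24.8% higher).

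**Figure D1:**
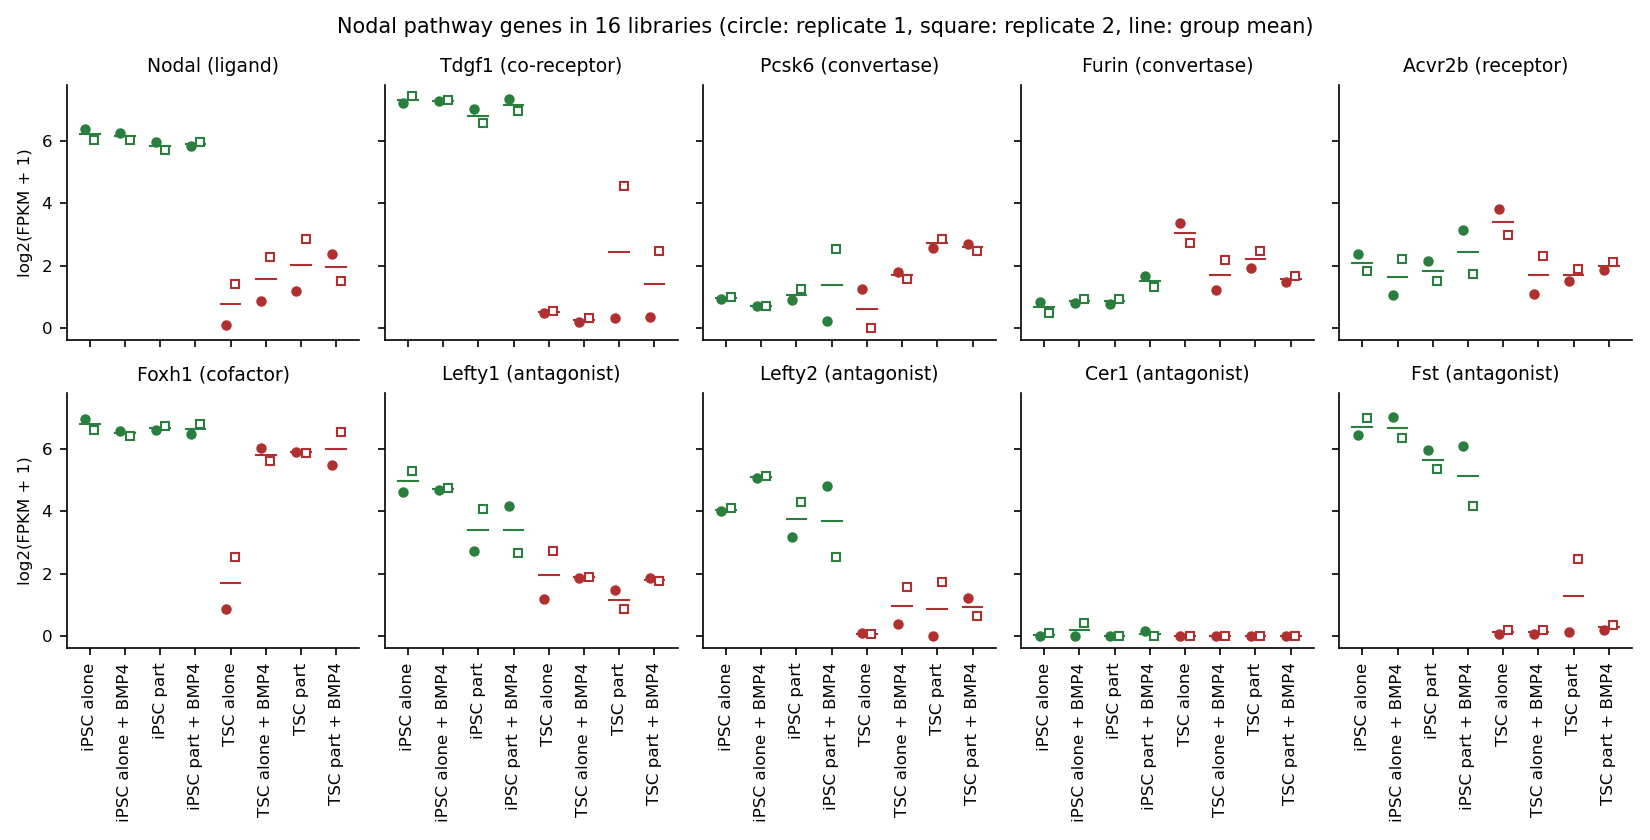
Level of each of the 10 genes on the log2(FPKM + 1) scale (y axis) in every library, by group (x axis), with iPSC origin in green and TSC origin in red; points are libraries and lines are group means. Nodal, Tdgf1 and Fst lie apart between the lineages in every library, while Foxh1 is low only in TSC alone without BMP4, at 0.834 and 4.86 FPKM.

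Nodal was transcribed in every library of iPSC origin, and the order of its 8 group means followed lineage. It stood at 82.5 and 64.5 FPKM in iPSC alone, 75.1 and 64.6 with BMP4, 61.5 and 51.7 in the assembled iPSC part and 55.9 and 61.5 there with BMP4. In TSC origin it stood at 0.0807 and 1.67 in TSC alone, 0.835 and 3.83 with BMP4, 1.31 and 6.21 in the assembled TSC part and 4.19 and 1.88 there with BMP4. The lowest library of iPSC origin (51.7) lay above the highest of TSC origin (6.21), and the 4 TSC groups overlapped each neighbour in the order of their means. The difference between lineages, TSC minus iPSC, was -4.57 ± 0.57 with BMP4 (limma adjusted p = 0.000296) and -3.95 ± 0.57 between assembled parts with BMP4 (limma adjusted p = 0.00127; -3.88 without the pair of libraries named above, limma adjusted p = 0.00313). Averaged over the 4 settings it was -4.44 ± 0.28 (limma adjusted p = 2.12e-07). Neither BMP4 nor assembly gave a called change of Nodal in either lineage. The interval of the BMP4 effect ran from -1.298 to 1.17 in iPSC alone and from -0.42 to 2.04 in TSC alone.

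Tdgf1, the membrane-anchored co-receptor, was the member with the highest median in iPSC origin, with 95.2 FPKM in the lowest library, 151 at the median and 172 in the highest. In TSC origin 6 of 8 libraries lay between 0.153 and 0.459 FPKM. The exceptions were replicate 2 of the assembled TSC part, at 22.5 against 0.261 FPKM in replicate 1, and replicate 2 of that part with BMP4, at 4.49 against 0.271. The lineage difference with BMP4 was -7.02 ± 0.96 (limma adjusted p = 0.000495), and between assembled parts -4.36 ± 0.96 (limma adjusted p = 0.00844). The latter value depended on the assembled TSC replicate, at -6.47 without replicate 2 (limma adjusted p = 0.000154) and -2.25 without replicate 1 (limma adjusted p = 0.0489). The call was lost when replicate 1 of the assembled iPSC part was left out (-4.14, limma adjusted p = 0.0586). Assembled and lone TSC differed by 1.93 ± 0.96 in Tdgf1 (limma adjusted p = 0.180), and by 4.04 when replicate 1 of the assembled TSC part was left out (limma adjusted p = 0.00405), but by -0.18 when replicate 2 was left out (limma adjusted p = 0.907).

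The high replicate of the assembled TSC part was high in several other genes of the iPSC lineage as well, but not in all. As a share of their mean in the assembled iPSC part, Tdgf1 stood at 20.0% in replicate 2 and 0.233% in replicate 1. Nodal stood at 10.96% and 2.31%, Lefty2 at 17.5% and 0%, and Fst at 8.94% and 0.188%. Gdf3, a related ligand, stood at 20.2% and 0%, Pou5f1 at 17.3% and 3.06%, and Nanog at 13.2% and 0.658%. Lefty1 went the other way, with 7.56% in replicate 2 and 16.6% in replicate 1, and Foxh1 stood at 56.4% and 57.7%. The part of cells of the other lineage in these values was not tested.

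**Figure D2:**
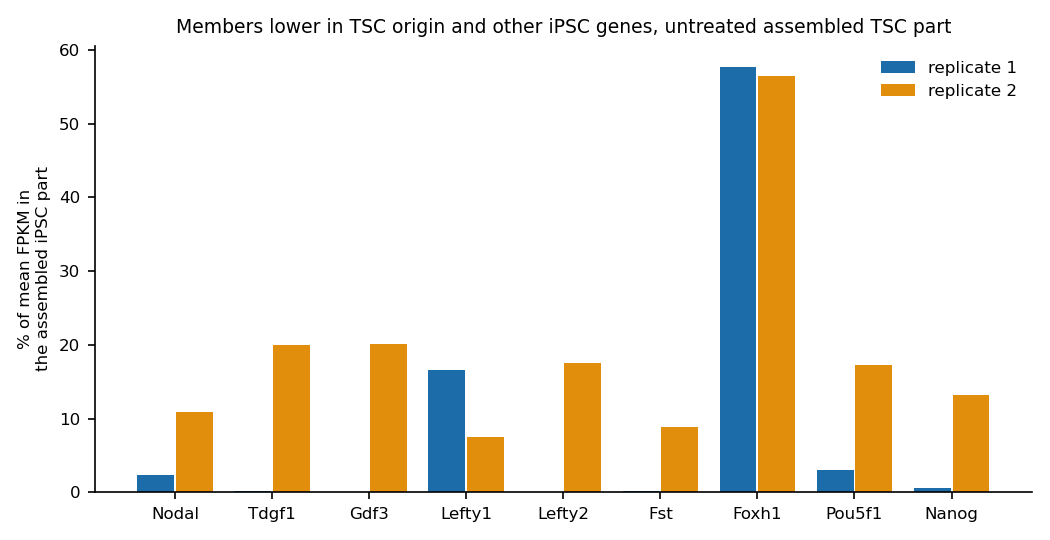
Bars give the FPKM of 9 genes in each replicate of the assembled TSC part without BMP4 as a percentage of the mean FPKM in the assembled iPSC part without BMP4 (y axis). Foxh1 is alike in both replicates (57.7% and 56.4%); for the other 8 genes replicate 2 lies between 7.56% and 20.2%, while replicate 1 is at or under 3.06% for all of these but Lefty1.

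The promoters of Nodal and Tdgf1 are shown because these genes followed the same lineage pattern, and that of Acvr2b because it did not differ between lineages on average. The 250 bases upstream of each RefSeq start in GRCm38.p6 are written 5′ to 3′ on the gene's strand, with CG dinucleotides in capitals. Nodal lies at chr10:61417722-61417971 (plus strand), Tdgf1 at chr9:110946159-110946408 (minus strand) and Acvr2b at chr9:119401928-119402177 (plus strand).
Nodal: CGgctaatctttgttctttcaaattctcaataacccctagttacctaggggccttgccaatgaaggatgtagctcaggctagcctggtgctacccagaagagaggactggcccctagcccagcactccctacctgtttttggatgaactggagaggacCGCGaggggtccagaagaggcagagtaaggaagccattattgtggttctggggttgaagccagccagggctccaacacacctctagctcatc
Tdgf1: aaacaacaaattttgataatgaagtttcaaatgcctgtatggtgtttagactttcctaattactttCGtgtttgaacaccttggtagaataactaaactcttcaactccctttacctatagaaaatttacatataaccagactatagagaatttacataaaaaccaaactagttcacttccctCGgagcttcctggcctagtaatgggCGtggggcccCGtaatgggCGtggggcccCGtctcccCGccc
Acvr2b: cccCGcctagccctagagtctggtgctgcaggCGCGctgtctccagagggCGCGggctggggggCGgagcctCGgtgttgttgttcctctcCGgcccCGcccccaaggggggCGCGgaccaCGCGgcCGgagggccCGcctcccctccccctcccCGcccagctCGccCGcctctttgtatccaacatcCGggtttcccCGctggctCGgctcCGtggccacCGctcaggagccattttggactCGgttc
These stretches hold 3, 7 and 24 CG dinucleotides in that order. In the full windows of 300 bases, which run 50 bases past the start, Nodal held 5, Tdgf1 7 and Acvr2b 27, beside a median of 7 and quartiles of 3 and 20 over 32851 promoter windows. Windows were at hand for 6 of the 10 members (Nodal, Tdgf1, Pcsk6, Furin, Acvr2b and Cer1). Pcsk6 and Furin, which differed between lineages on average, held 52 (Pcsk6) and 51 and 7 (Furin, by window). Cer1, which stayed near 0 FPKM, held 6. A relation of CG content to lineage was not tested. The FOXH1 motif AATCCACA, searched on both strands, was in none of their 7 windows and in 0.855% of all windows. Its looser form AATNCACA, which includes the first, was in none of them and in 3.6% of all, and the SMAD palindrome GTCTAGAC was in none of them and in 0.213% of all. At such shares 7 windows of any genes would mostly hold none, so the search cannot tell the members from other genes. Sites outside the windows of 300 bases were not searched.

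The convertases ran against the ligand: where they differed between lineages they were higher in TSC origin. Furin, the general proprotein convertase of the secretory pathway, stood at 0.775 and 0.416 FPKM in iPSC alone and at 9.44 and 5.68 in TSC alone. Its other iPSC-origin libraries lay between 0.707 and 2.16 FPKM and its other TSC-origin libraries between 1.31 and 4.56. The difference was 2.40 ± 0.36 alone (limma adjusted p = 0.000297) and 1.34 ± 0.36 between assembled parts (limma adjusted p = 0.0226). The latter was lost without replicate 2 of the assembled TSC part (1.07, limma adjusted p = 0.143), and also without replicate 1 (1.25, limma adjusted p = 0.118) or replicate 2 (1.43, limma adjusted p = 0.0855) of the assembled iPSC part. With BMP4 the assembled parts overlapped, at 2.16 and 1.52 FPKM for iPSC and 1.79 and 2.18 for TSC. In TSC alone BMP4 lowered Furin to 1.31 and 3.55 FPKM (-1.36 ± 0.36, limma adjusted p = 0.0272, where 12.1% of all genes passed). That call was lost without replicate 1 of TSC alone (-1.04, limma adjusted p = 0.138) or replicate 1 of TSC alone with BMP4 (-0.88, limma adjusted p = 0.213). The mean BMP4 effect over lone and assembled TSC was -0.99 ± 0.25 (limma adjusted p = 0.0347, 7.03% of all genes). That call was lost in 15 of 23 alternatives, 11 of which left out a single library, and with the largest adjusted p without replicate 2 of the assembled TSC part (-0.86, limma adjusted p = 0.128).

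Pcsk6, a secreted convertase of the same family, reached at most 2.47 FPKM in lone cultures and was at least 4.56 in assembled TSC parts. It stood at 1.38 and 0 FPKM in TSC alone and at 4.94 and 6.28 in the assembled TSC part, which did not overlap (2.09 ± 0.58, limma adjusted p = 0.0256, where 19.2% of all genes passed). The call was lost without replicate 2 of TSC alone (1.47, limma adjusted p = 0.162), and without either replicate of the assembled TSC part (2.24, limma adjusted p = 0.0872, and 1.95, limma adjusted p = 0.115). With BMP4, TSC alone stood at 2.47 and 2.00 and the assembled TSC part at 5.51 and 4.56. That difference had the same direction and did not pass (0.90 ± 0.58, limma adjusted p = 0.512, where 0.298% of all genes passed). In iPSC origin 7 of 8 libraries lay between 0.165 and 1.39 FPKM. The eighth, replicate 2 of the BMP4-treated assembled iPSC part, stood at 4.87 FPKM, which was 96.7% of the mean of the assembled TSC part with BMP4, against 3.27% in replicate 1, and it is the library that also held Elf5 and Hand1. Between assembled parts with BMP4 the difference in Pcsk6 was 1.20 ± 0.58 (limma adjusted p = 0.222), and without that library it was 2.37 (limma adjusted p = 0.00504). Averaged over the 4 settings Furin was 1.16 ± 0.18 higher in TSC origin (limma adjusted p = 0.000176) and Pcsk6 0.87 ± 0.29 higher (limma adjusted p = 0.0245). The Pcsk6 call was lost in 5 of 22 alternatives: with a pseudocount of 0.1 (limma adjusted p = 0.135), without the filter (0.0633), and without replicate 1 of TSC alone (0.0573), replicate 1 of the assembled iPSC part (0.0527) or replicate 2 of the assembled TSC part (0.0518). Without the pair of libraries with genes of the other lineage it was 1.13 (limma adjusted p = 0.00129).

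Acvr2b, a type II receptor for Nodal and activin, did not pass between lineages on average (0.20 ± 0.27, limma adjusted p = 0.578, interval -0.40 to 0.79), and the mean was -0.029 without the pair of libraries with genes of the other lineage. Its highest library was in TSC alone, whose replicates stood at 13.2 and 6.94 FPKM, against 4.21 and 2.54 in iPSC alone (1.302 ± 0.55, limma adjusted p = 0.0819). The assembled TSC part stood at 1.82 and 2.75 FPKM, below TSC alone (-1.70 ± 0.55, limma adjusted p = 0.0463), but the call was lost in 16 of 23 alternatives, among them the fit with a replicate block (limma adjusted p = 0.0587) and that without the pair of libraries (-1.91, limma adjusted p = 0.0720). TSC alone with BMP4 stood at 1.16 and 3.95 FPKM (-1.70 ± 0.55, limma adjusted p = 0.0634). The other libraries lay between 1.09 and 7.82 FPKM. Of 7 further receptor genes 4 were tested, and none passed in any of the 19 comparisons fitted by limma, with 3 results at an unadjusted p under 0.05. Acvr2a, the other type II activin receptor, was among those tested and had group means from 1.42 to 3.12 FPKM. The type I receptors Acvr1b (group means from 0.0580 to 0.860) and Acvr1c (at most 0.0373) did not reach 1 FPKM in 2 libraries and were not tested.

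Foxh1 was the member that BMP4 and assembly moved most in TSC. It stood at 0.834 and 4.86 FPKM in TSC alone, at 64.6 and 47.7 with BMP4, at 58.8 and 57.5 in the assembled TSC part and at 43.3 and 92.6 there with BMP4. In iPSC origin it ran from 84.4 FPKM through a median of 96.8 to 124. TSC alone without BMP4 lay below the other 14 libraries, while the other 3 TSC groups overlapped one another. BMP4 raised Foxh1 in TSC alone by 4.11 ± 0.45 (limma adjusted p = 0.000231), and assembly without BMP4 raised it by 4.17 ± 0.45 (limma adjusted p = 0.000212). These contrasts share the libraries of TSC alone. In the assembled TSC part the BMP4 effect was 0.12 ± 0.45 (limma adjusted p = 0.996), and its interval ran from -0.85 to 1.09. The BMP4 effect in assembled minus that in lone TSC was -3.99 ± 0.63 (limma adjusted p = 0.0120, where 1.75% of all genes passed). This interaction missed the threshold without replicate 1 of TSC alone with BMP4 (-3.77, limma adjusted p = 0.0552), without replicate 1 of the assembled TSC part (-3.97, limma adjusted p = 0.0533) and in a fit of TSC origin only (limma adjusted p = 0.0525). In iPSC alone the BMP4 effect was -0.28 ± 0.45 and the assembly effect -0.10 ± 0.45.

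The lineage difference in Foxh1 passed in a single setting. It was -5.07 ± 0.45 between lone cultures without BMP4 (limma adjusted p = 1.25e-05) and -0.68 ± 0.45 with BMP4 (limma adjusted p = 0.318). Between assembled parts it was -0.80 ± 0.45 (limma adjusted p = 0.255), and with BMP4 -0.62 ± 0.45 (limma adjusted p = 0.433). The libraries of the lineages overlapped only in the last of these. Averaged over all settings the Foxh1 difference was -1.79 ± 0.22 (limma adjusted p = 3.41e-05), a mean that includes the lone cultures without BMP4. Among genes of trophoblast stem cells, Eomes followed a like course: it stood at 0.219 and 0.0844 FPKM in TSC alone, 14.3 and 13.7 with BMP4, 11.2 and 30.5 in the assembled TSC part and 29.2 and 33.8 there with BMP4. Its interaction was -2.98 ± 0.50 (limma adjusted p = 0.0140). Elf5 was also low in TSC alone, as given above, and Plac1, a gene of differentiated trophoblast, was high there, at 745 and 293 FPKM against 0.640 to 16.01 in the other libraries of TSC origin. Of all 9 trophoblast markers, Elf5 and Plac1 among them, 1 rose and 5 fell on assembly of TSC (median -1.59). With BMP4 in TSC alone 1 rose and 2 fell (median -0.99). Their sum was 6995 and 3880 FPKM in TSC alone, 1603 and 1696 with BMP4 and 1793 and 1648 in the assembled TSC part. Markers of other cell types moved in the same comparisons. Of 4 endoderm markers tested, 3 rose with BMP4 in TSC alone (Dab2 by 2.75, Amn by 1.77 and Gata4 by 1.04) and 2 rose on assembly (Dab2 by 1.44 and Gata4 by 1.42). The summed level of all 9 endoderm markers was 2.60 and 2.28 FPKM in TSC alone, 10.4 and 13.7 with BMP4 and 8.67 and 6.87 in the assembled TSC part. Of 6 pluripotency markers, 2 rose with BMP4 and 3 on assembly. Over all genes, 6.39% rose and 5.74% fell with BMP4 in TSC alone, and 9.01% rose and 10.2% fell on assembly. The part of these markers, and of the state of the lone TSC colonies, in the Foxh1 values was not tested.

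Kifc2, a kinesin gene on the opposite strand whose end lies 29 bases from Foxh1 in the GENCODE annotation of GRCm38, with no shared exon bases, was low in the same libraries. It stood at 0.228 and 0.707 FPKM in TSC alone and between 2.88 and 8.23 in the other 14. Foxh1 stood at 43.3 FPKM or more in these 14 libraries. Smart-seq2 does not mark strand, so reads that run past the end of either gene could be counted for the other, and the part of this in either value was not tested.

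**Figure D3:**
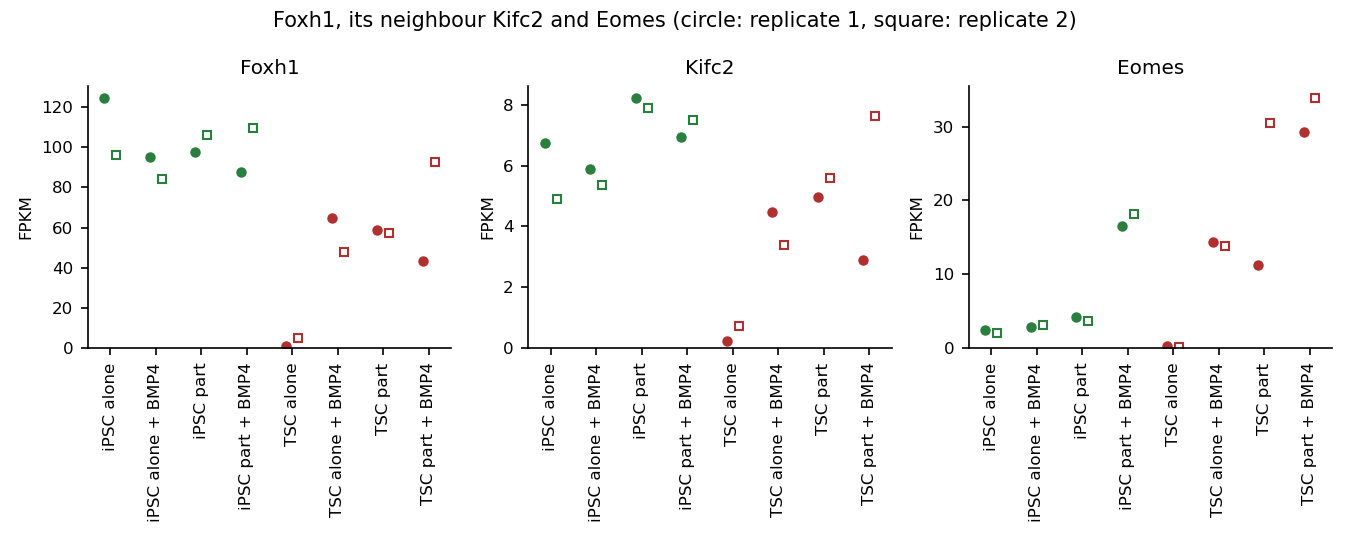
FPKM (y axis, linear, from 0, with a scale of its own for each gene) of Foxh1, its neighbour Kifc2 and the trophoblast factor Eomes in each library by group (x axis); green marks iPSC origin and red TSC origin. All 3 genes are lowest in TSC alone without BMP4, where Foxh1 is at 0.834 and 4.86 FPKM.

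The antagonists Lefty1, Lefty2 and Fst were higher in iPSC origin, and Cer1 was at or near 0 throughout. Lefty1 ran from 5.35 FPKM through a median of 20.2 to 38.3 in iPSC origin, and from 0.816 through 2.51 to 5.58 in TSC origin, so that the ranges overlapped. Lone iPSC libraries lay between 23.6 and 38.3 FPKM with or without BMP4, while assembled iPSC parts stood at 5.66 and 15.9 without and 16.9 and 5.35 with BMP4. All 4 assembled libraries were thus below all 4 lone ones, and the share of all genes that part in this way was not counted. The mean assembly effect was -1.43 ± 0.41 (limma adjusted p = 0.0211), in a comparison where 26.6% of all genes passed, those that fell making up 20.6% of all genes, and where the median of all genes was -0.19. Quantile normalization moved that median to -0.0068 and Lefty1 to -1.15 (limma adjusted p = 0.0569), and upper quartile rescaling moved them to 0.044 and -1.13 (limma adjusted p = 0.0583). The direction held in every alternative and the call was lost in 9 of 23, among them without replicate 2 of iPSC alone (-1.27, limma adjusted p = 0.0832), without either replicate of iPSC alone with BMP4 (-1.45, limma adjusted p = 0.0555, and -1.42, limma adjusted p = 0.0556), without replicate 1 of the assembled iPSC part (-1.10, limma adjusted p = 0.0865) and without replicate 2 of that part with BMP4 (-1.06, limma adjusted p = 0.0688).

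Lefty2, the second Lefty gene, had the same lineage but another order of groups. It stood at 15.0 and 16.2 FPKM in iPSC alone and at 32.3 and 34.5 with BMP4, which did not overlap, but the difference did not pass (1.05 ± 0.70, limma adjusted p = 0.919) in a comparison where 0.0597% of all genes did. The assembled iPSC part stood at 8.15 and 18.7, and with BMP4 at 27.2 and 4.83. The lower library with BMP4 was the one with trophoblast genes. In TSC origin Lefty2 ran from 0 through 0.437 to 2.36 FPKM. Per length, Lefty1 exceeded Lefty2 1.58 and 2.36 times in iPSC alone, and stood at 0.770 and 0.760 times Lefty2 with BMP4. The assembled iPSC part gave 0.694 and 0.850, and with BMP4 0.620 and 1.11. Of all stretches of 50 bases in the GENCODE transcripts of Lefty1, 17.9% also occur in Lefty2, and 12% of those of Lefty2 occur in Lefty1, so reads of these genes may be split between them. For Tdgf1, 8.86% occur in the pseudogene Tdgf1-ps1, and for the other members the share was at most 2.05%.

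Between lineages with BMP4, Lefty1 differed by -2.85 ± 0.57 (limma adjusted p = 0.00523) and Lefty2 by -4.12 ± 0.70 (limma adjusted p = 0.00193). Between assembled parts the differences were -2.24 ± 0.57 for Lefty1 (limma adjusted p = 0.0184) and -2.87 ± 0.70 for Lefty2 (limma adjusted p = 0.0142). Without replicate 2 of the assembled iPSC part neither passed (-1.56, limma adjusted p = 0.180, and -2.32, limma adjusted p = 0.127), and without replicate 1 of the assembled TSC part neither passed (-2.55, limma adjusted p = 0.0568, and -2.001, limma adjusted p = 0.148). Without replicate 2 of the assembled TSC part Lefty1 did not pass and Lefty2 did (-1.93 for Lefty1, limma adjusted p = 0.111). Between assembled parts with BMP4, Lefty2 passed (-2.74 ± 0.70, limma adjusted p = 0.0267) and Lefty1 did not (-1.60 ± 0.57, limma adjusted p = 0.100). Without the assembled iPSC library that held trophoblast genes Lefty1 passed as well (-2.35, limma adjusted p = 0.0293). Lefty2 was lost there without replicate 1 of the BMP4-treated assembled iPSC part (-1.60, limma adjusted p = 0.242) or either replicate of the assembled TSC part with BMP4 (-3.03, limma adjusted p = 0.0816, and -2.44, limma adjusted p = 0.141).

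Fst, which binds activins and keeps them from their receptors, stood at 1.04 and 1.97 times Nodal per length in iPSC alone. It stood at 85.9 and 126.8 FPKM there, 129 and 80.5 with BMP4, 61.6 and 39.8 in the assembled iPSC part and 66.7 and 17.2 there with BMP4. All 4 assembled libraries lay below all 4 lone ones, as for Lefty1, and how many of all genes do so was not counted. The mean assembly effect did not pass (-1.31 ± 0.47, limma adjusted p = 0.0571), where 20.6% of all genes fell and the median of all genes was -0.19. Without the pair of libraries with genes of the other lineage it was -0.83 (limma adjusted p = 0.0345). In TSC origin 7 of 8 libraries lay between 0.0411 and 0.292 FPKM and replicate 2 of the assembled TSC part stood at 4.53. The lineage difference averaged -5.59 ± 0.33 (limma adjusted p = 1.43e-07), and it passed in all 4 settings and in every alternative tried.

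Cer1 was listed at 0 in 13 of 16 libraries, among them all 8 of TSC origin, and at 0.0661, 0.346 and 0.128 FPKM in the other 3. Scaled by the relative depth of the libraries, which was read from the steps of the lowest values, these 3 values were 1.01, 4.02 and 1 times the smallest of them. It did not reach 1 FPKM in any library and was not tested. Cer1 is a marker of the anterior visceral endoderm, and the 9 endoderm markers, whose sum is given above, ranged from Ttr, at 0 in all libraries, to Dab2, at up to 7.02 FPKM.

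**Figure D4:**
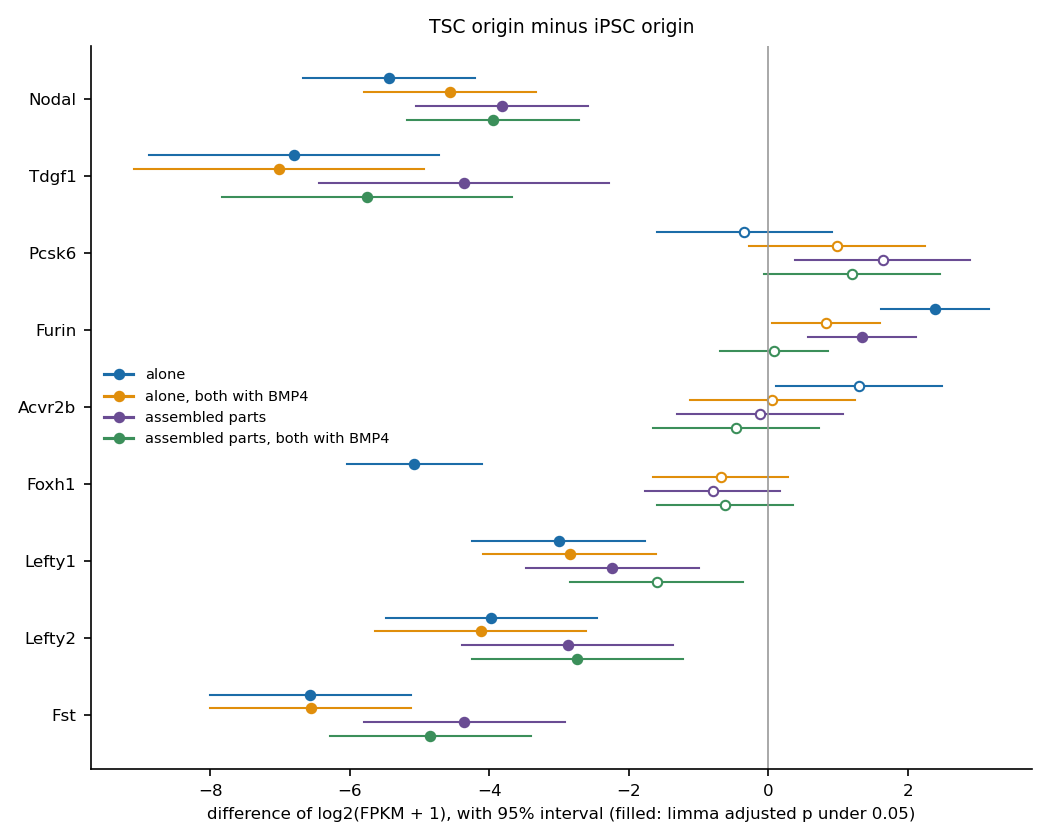
Difference of log2(FPKM + 1), TSC origin minus iPSC origin (x axis), for the 9 members tested (y axis) in 4 settings by colour; lines are 95% intervals from limma and filled points passed an adjusted p of 0.05. Nodal, Tdgf1, Lefty2 and Fst pass in all 4 settings, and Foxh1 passes only alone without BMP4 (-5.07).

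Set beside these differences between lineages, the effects of BMP4 and assembly within a lineage were few. In iPSC alone BMP4 changed 0 of 9 members by limma, with 0 also at an unadjusted p under 0.05 (0.0597% of all genes passed). In the assembled iPSC part it changed 0 (0.00746% of all genes passed), and in the assembled TSC part 0 (0.500%), with 0 at an unadjusted p under 0.05 in both. Assembly changed 0 members in iPSC without BMP4 by limma, where 11.8% of all genes passed, and 0 with BMP4 (5.72%). Unadjusted p-values under 0.05 were found for Lefty1 in both of these (0.0182 and 0.0393) and for Fst with BMP4 (0.0368). Averaged over lone and assembled iPSC, BMP4 changed 0 members by limma (0.186% of all genes), and the interaction of BMP4 with assembly in iPSC changed 0 (0.0224%), with 0 at an unadjusted p under 0.05 in both. In TSC, assembly without BMP4 raised Foxh1 and Pcsk6 and lowered Acvr2b, beside 9.01% of all genes raised and 10.2% lowered. With BMP4 assembly changed 0 members by limma, where 0.298% of all genes passed, and none had an unadjusted p under 0.05. BMP4 in TSC alone raised Foxh1 and lowered Furin, beside 6.39% of all genes raised and 5.74% lowered. Averaged over cultures without and with BMP4, assembly in TSC raised Foxh1 by 2.18 ± 0.32 (limma adjusted p = 0.00140) and Pcsk6 by 1.496 ± 0.41 (limma adjusted p = 0.0265), where 17.6% of all genes passed. The Pcsk6 call was lost in 8 of 23 alternatives, 6 of which left out a single library, with the largest adjusted p without replicate 2 of TSC alone with BMP4 (1.44, limma adjusted p = 0.0877). Without the pair of libraries with genes of the other lineage it was kept (1.42, limma adjusted p = 0.0176). BMP4 averaged over lone and assembled TSC raised Foxh1 by 2.11 ± 0.32 (limma adjusted p = 0.00246). The difference between lineages in these effects was tested for all 9 members. It passed for Foxh1 in the assembly effect without BMP4 (4.28 ± 0.63, limma adjusted p = 0.00460, where 4.96% of all genes passed) and in the BMP4 effect in lone cultures (4.39 ± 0.63, limma adjusted p = 0.00463, 2.79% of all genes). It passed for 0 members in the assembly effect with BMP4 (0.0298% of all genes), with 0 at an unadjusted p under 0.05. It also passed for 0 members by limma in the BMP4 effect of assembled parts (0.0746%), with 1, Furin, at an unadjusted p of 0.0272.

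**Figure D5:**
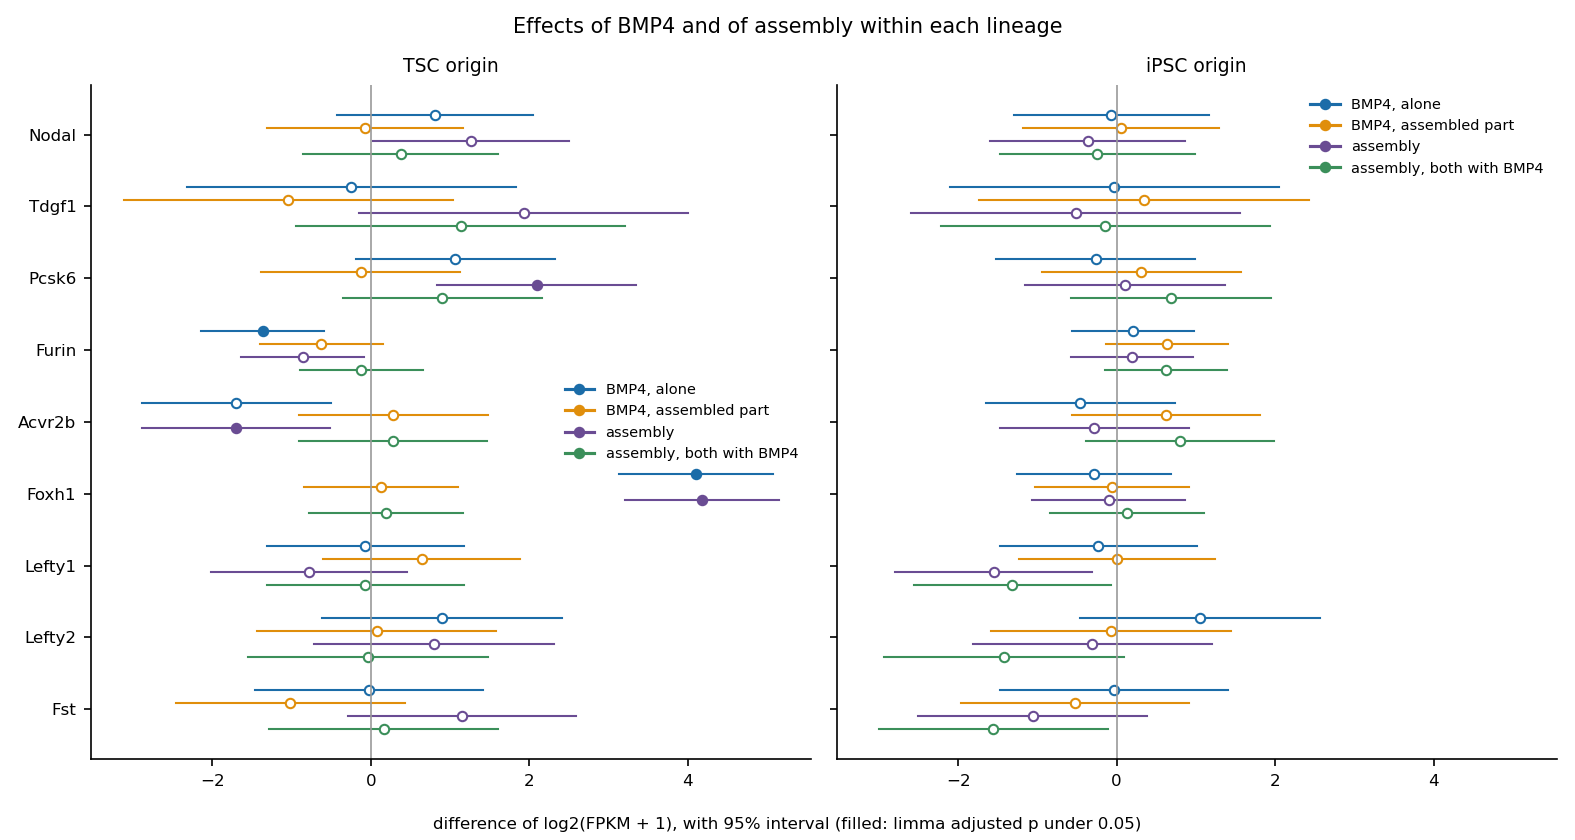
Effects of BMP4 and of assembly on the 9 members tested, as differences of log2(FPKM + 1) with 95% intervals (x axis), in TSC origin (left) and iPSC origin (right); filled points passed an adjusted p of 0.05 in limma. Foxh1 in TSC stands apart, at 4.11 for BMP4 alone and 4.17 for assembly, and no point is filled on the iPSC side.

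Of 44 further pathway genes listed, 43 were in the table (Gdf1 was not matched) and 34 were tested. Between lone TSC and iPSC without BMP4, 6 of these 34 were higher in TSC and 9 lower, beside 16.2% and 20.2% of all genes, with a median of -0.025. Among ligands, Gdf3 fell as Nodal did, from a mean of 23.7 FPKM in iPSC alone to 0.0785 in TSC alone (-4.42 ± 0.63, limma adjusted p = 0.000221), and it passed in all 4 lineage settings. Of 11 intracellular genes tested, 5 were higher and 1 lower in TSC: Smad2, which carries the signal, rose by 1.91 ± 0.22 (limma adjusted p = 4.85e-05), Smad7, an inhibitor, by 2.00 ± 0.33, and Pmepa1, another inhibitor, by 2.11 ± 0.35, while Skil was the lower one. Smad3 was higher in TSC origin in all 4 settings, from 1.53 to 2.14. Among extracellular inhibitors Fstl3, a relative of Fst, was higher in TSC in all 4 settings (2.94 ± 0.29 alone, limma adjusted p = 2.10e-05), against the direction of Fst, and Fstl1 was lower alone (-2.19 ± 0.35). Of 9 target genes tested 5 were lower in TSC alone and none higher by limma (none at an unadjusted p under 0.05), among them T (-4.67 ± 0.84) and Otx2 (-4.01 ± 0.48), which are also genes of mesoderm and forebrain. Otx2 was at 0 in both libraries of TSC alone. Eomes was lower in TSC alone (-1.48 ± 0.35, limma adjusted p = 0.00575) but higher in TSC origin with BMP4 (1.93 ± 0.35, limma adjusted p = 0.00300).

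With BMP4 3 of the 34 were higher and 7 lower between lineages, beside 7.62% and 10.6% of all genes. Between assembled parts 4 were higher and 4 lower, beside 11.1% and 5.89%, and between assembled parts with BMP4 2 and 5, beside 5.32% and 4.82%. BMP4 in TSC alone raised 3 and lowered 2 of the 34, near the share over all genes (6.39% and 5.74%). Eomes rose by 3.71 ± 0.35 (limma adjusted p = 7.95e-05), Bambi, a pseudoreceptor that BMP signalling is known to induce, by 2.94 ± 0.42 (limma adjusted p = 0.00134) and Fstl1 by 1.299 ± 0.35, while Pmepa1 fell by 1.59 and Ski by 1.26. Assembly of TSC without BMP4 raised 3 and lowered 5, beside 9.01% and 10.2% of all genes, with Eomes up by 4.09 ± 0.35 (limma adjusted p = 6.44e-05) and Pmepa1 (-1.83 ± 0.35), Fstl3 (-1.38 ± 0.29) and Smad2 (-1.09 ± 0.22) down. In iPSC, BMP4 changed 0 of the 34 by limma in either culture, with 6 at an unadjusted p under 0.05 alone and 3 in the assembled part. Assembly of iPSC raised Mixl1, a gene of the primitive streak (3.42 ± 1.03, limma adjusted p = 0.0489), beside 2.08% of all genes. It lowered Otx2 (-1.60 ± 0.48, limma adjusted p = 0.0491) and Hhex (-1.34 ± 0.36, limma adjusted p = 0.0295), beside 9.74% of all genes. With BMP4 it raised Eomes (2.22 ± 0.35, limma adjusted p = 0.0180), beside 0.880% of all genes. The calls of Mixl1 and Otx2 lie close to the threshold. How these calls hold under the alternatives was read for the 10 members only. For Nodal the assembly effect in iPSC was -0.36 without BMP4 and -0.24 with it.

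The genes whose course over the 16 libraries was closest to that of Nodal, by the mean absolute difference of centred log2(FPKM + 1) among 8521 candidates, were Nanog (0.41), Surf2 (0.42) and Gdf3 (0.42). For Fst they were Tspan6 (0.61), Pou5f1 (0.61) and Pdpn (0.61), and for Lefty2 Zdbf2 (0.44), Wnt3 (0.48) and Gpc3 (0.50). These distances describe the 16 libraries only, and the lineage of the library is shared by all points.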

How the data were processed

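The data are 16 mouse Smart-seq2 libraries in 8 groups of 2, given as FPKM in a single table deposited by the authors, with 31663 entries. The tools CASAVA and TopHat2 and the builds mm9 and hg19 are named, with no role, per the submitters' processing notes. Which program computed the FPKM, with which annotation and strand setting, is not given in the sources used here. Read totals are unknown. Relative depth, read from the steps between low values, ran from 0.418 to 1.32 times that of replicate 1 of iPSC alone, so low values carry few fragments.

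The 13406 genes that reached 1 FPKM in 2 or more libraries were kept, and log2(FPKM + 1) was fitted with limma 3.58.1 in R 4.3.3 (8 group means over all 16 libraries, 8 residual degrees of freedom, intensity trend). The 19 comparisons were two-sided, with Benjamini-Hochberg adjustment over all genes of a comparison. The fit was tested on simulated data. All 10 members are named whatever their result, and other pathway genes, up to 4 per list and comparison, where they passed with the largest changes. Eomes, Kifc2 and Plac1 beside Foxh1, and Acvr2a and Acvr1b, were chosen after their values were seen. The 10 members, the lists and the markers were chosen with earlier results of these data known. The alternatives tried were upper quartile rescaling, quantile normalization, a pseudocount of 0.1, no filter, a fit of 1 lineage, a replicate block and leaving out each library. A fit without the 2 libraries in which genes of the other lineage were seen was added after seeing the data. Promoter windows came from RefSeq (GRCm38.p6) and transcripts from GENCODE (GRCm38). Python 3.11.15 was used for tables and figures. Some genes that the rules for named genes would give are not reported here.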

Additional observations from a re-analysis of the deposited data

Results flagged for a closer look

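The effects of BMP4 and of assembly on Foxh1 differed between TSC and iPSC, by a test of the difference in limma. The assembly effect without BMP4 was 4.28 larger in TSC than in iPSC (limma adjusted p = 0.00460, where 4.96% of all genes passed). The BMP4 effect in lone cultures was 4.39 larger in TSC than in iPSC, with every TSC library higher and every iPSC library lower with BMP4 (limma adjusted p = 0.00463, 2.79% of all genes). The BMP4 effect in the assembled TSC part was 3.99 below that in TSC alone (-3.99, limma adjusted p = 0.0120). All 3 differences use the libraries of TSC alone without BMP4. Those replicates differed by more than 1 in log2(FPKM + 1) in 2083 genes, against 454 in iPSC alone.

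In 3 other cases the libraries of the lineages moved in opposite directions while the difference did not pass. Such opposite moves without overlap were found in 3.45% of all genes for assembly with BMP4, 10.3% for BMP4 in lone cultures and 7.41% for BMP4 in assembled parts. With BMP4, Fst was lower in every assembled than lone iPSC library and higher in every assembled than lone TSC library, where it lay between 0.0411 and 0.292 FPKM (TSC minus iPSC 1.71, limma adjusted p = 0.735). In lone cultures Pcsk6 was lower with BMP4 in every iPSC library and higher in every TSC library (1.33, limma adjusted p = 0.411). In assembled parts Furin was higher with BMP4 in every iPSC library and lower in every TSC library (-1.26, limma adjusted p = 0.481).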

How the results depend on the processing

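Of 41 calls over 171 pairs of a member and a comparison, 28 were kept under every alternative and 13 were lost under some, and 0 calls changed direction. Nodal and Fst kept their lineage calls in all 4 settings. Under a fit without the low-level filter, assembled parts gave 4 members in place of 6, assembled parts with BMP4 3 in place of 4 and the lineage mean 7 in place of 8, while assembled against lone TSC gave 1 member in place of 3, BMP4 in TSC alone and its mean over TSC origin 1 in place of 2 each, assembly in TSC origin 1 in place of 2 and assembly in iPSC origin 0 in place of 1. With a pseudocount of 0.1, BMP4 in TSC alone, BMP4 in TSC origin and assembly in TSC origin gave 1 in place of 2 each. That setting also gave 3 in place of 4 for assembled parts with BMP4, 2 in place of 3 for assembled against lone TSC and 7 in place of 8 for the lineage mean. In a fit of 1 lineage, BMP4 in TSC alone and in TSC origin gave 1 each, the interaction in TSC 0 and assembly in iPSC origin 2. Quantile normalization and upper quartile rescaling gave 0 for assembly in iPSC origin, and 2 in place of 3 for assembled against lone TSC. Without the 2 libraries with genes of the other lineage, BMP4 in TSC origin gave 1. Leaving out 1 library at a time, members called ranged from 7 to 7 for lone TSC against iPSC, 5 to 6 with BMP4, 3 to 7 between assembled parts, 3 to 6 with BMP4, 1 to 3 for assembled against lone TSC, 1 to 3 for BMP4 in TSC alone, 1 to 3 for BMP4 in TSC origin, 0 to 4 for assembly in iPSC origin, 1 to 2 for assembly in TSC origin and 0 to 1 for the interaction in TSC. The count over all genes moved more: for assembled against lone iPSC it was 1585, and 6 without replicate 2 of the assembled iPSC part, and for lone TSC against iPSC it was 4878, and 3045 without replicate 2 of iPSC alone. For the interaction in TSC it was 235, and 54 in a fit of 1 lineage, 134 with a replicate block and 155 without the filter.

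The replicate block ended 1 member call, Acvr2b in assembled against lone TSC (-1.70, limma adjusted p = 0.0587), and changed no other. The main fit did not pair same-numbered libraries. Over 28 pairs of groups the correlation of their deviations ran from -0.18 to 0.12, with a median of -0.022. Such values cannot show whether same-numbered libraries share a structure or culture, which is not stated. Precision is limited by 2 libraries per group and by unknown depth, and values under 1 FPKM rest on few fragments.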
